A study of Mus musculus with 2 samples.

Results

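Endocardial cells, the endothelium that lines the heart tube, were taken from 2 droplet-based single-cell RNA libraries of the pharyngeal apparatus and heart of mouse embryos at E9.5. A cell was counted as endothelial when at least 4 of 8 endothelial genes (Cdh5, Pecam1, Kdr, Cldn5, Emcn, Tie1, Egfl7 and Plvap) had a unique molecular identifier (UMI, 1 per captured transcript) and their UMIs summed to at least 10. An endothelial cell was called endocardial when Npr3 and Nfatc1 together had at least 2 UMIs. The rule gave 328 endocardial cells among 16780 cells that passed the quality filter, out of 17699 deposited. The Ctrl library held 195 of them and the library labelled cKO held 133. The cells compared with them were the 115 and 191 endothelial cells without any Npr3 or Nfatc1 UMI, called other endothelial cells here, and 60 and 92 endothelial cells had exactly 1 such UMI.

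Both libraries came from Swiss Webster embryos. Ctrl embryos carried Mesp1Cre and the Rosa26-GFPflox/+ reporter, and the library labelled cKO came from embryos that carried the same driver and reporter together with Tbx1flox/flox. Living GFP-positive cells were sorted before capture, so the libraries hold the Mesp1Cre lineage, which is mesoderm labelled at gastrulation, and the driver acts in all of that mesoderm and not in endocardium alone. Tissue of a pair of embryos was pooled for each library. There is therefore 1 library per genotype, no test between genotypes can be made, and every interval below is a 95% interval that covers counting error only. Genotype, capture, sequencing run and exact embryo stage cannot be told apart.

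The endocardium arises from mesodermal progenitors and gives the inner layer of the chambers. Its cells signal to the muscle through Notch, neuregulin and endothelin, and in the atrioventricular canal and outflow tract a subset undergoes an endothelial-to-mesenchymal transition that builds the cushions of the valves. Npr3 encodes a natriuretic peptide clearance receptor, and Nfatc1 encodes a calcium-regulated transcription factor of endocardium and valve precursors. Tbx1, the gene deleted in the study, encodes a T-box transcription factor of pharyngeal mesoderm and endoderm.

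The libraries held 132017331 UMIs (Ctrl) and 162874391 UMIs (cKO). Endocardial cells had a median of 18689 UMIs and 4382 genes in the Ctrl library and of 15600 UMIs and 3786 genes in the library labelled cKO. Tbx1 went against the label: over all kept cells it stood at 26.9 CPM (26.1 to 27.8) in the Ctrl library and at 44.1 CPM (43.1 to 45.1) in the library labelled cKO, where CPM is UMIs of a gene scaled to 1000000 summed UMIs of the cell group. These are 3′ counts, which do not separate an intact from a recombined transcript, so they check the label only in part. The libraries shared 15 cell barcodes, none of which was an endocardial cell. At least 2 UMIs of Xist and at least 2 of Y-linked genes, the mark of a droplet with cells of a female and a male embryo, were found in 5.64% (2.85 to 9.87%) of endocardial cells of the Ctrl library and in 9.02% (4.75 to 15.2%) of those of the library labelled cKO.

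The values that chose the cells are given as a description. Cdh5, the VE-cadherin of endothelial junctions, had a UMI in 96.9% of endocardial cells of the Ctrl library and in 93.985% of those of the library labelled cKO, against 0.964% and 0.663% of the cells outside the endothelium, whose median depths were 17292 and 14639 UMIs. After each cell was thinned to 5000 UMIs these shares were 75.4% and 62.0% against 0.335% and 0.302%. Per endocardial cell, Npr3 and Nfatc1 together had 2 to 32 UMIs with a median of 4 in the Ctrl library and 2 to 12 UMIs with a median of 3 in the library labelled cKO. Npr3 and Nfatc1 were not private to endothelium. Of the cells outside the endothelium, 6.99% (6.39 to 7.63%) in the Ctrl library and 3.78% (3.41 to 4.19%) in the library labelled cKO also had 2 or more of these UMIs, and it was the endothelial genes that kept them out.

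Genes that the rule did not use went up or down across bins of the Npr3 and Nfatc1 count. Tbx20, a T-box transcription factor of endocardium and heart muscle, went across endothelial cells of the Ctrl library from 5.61 CPM (2.90 to 9.79) at 0 UMIs of the pair to 25.1 CPM (17.03 to 35.6) at 1 UMI, 42.1 CPM (30.6 to 56.5) at 2 UMIs, 77.2 CPM (63.3 to 93.3) at 3 to 5 UMIs and 160 CPM (142 to 180) at 6 or more. In the library labelled cKO the same bins stood at 10.5 CPM (7.38 to 14.5), 18.1 CPM (12.5 to 25.4), 27.5 CPM (19.0 to 38.4), 87.4 CPM (69.2 to 109) and 112 CPM (82.6 to 149). Gata4, a zinc-finger transcription factor of the heart, stood at 25.9 CPM (17.7 to 36.5) just outside and 42.1 CPM (30.6 to 56.5) just inside the threshold in the Ctrl library, and at 21.9 CPM (15.7 to 29.9) and 24.3 CPM (16.4 to 34.6) in the library labelled cKO. The intervals of these Gata4 pairs overlap. Those of Adgrg6 did not overlap in the Ctrl library, at 13.7 CPM (8.01 to 22.01) just outside and 32.5 CPM (22.5 to 45.4) just inside, and did in the library labelled cKO, at 15.4 CPM (10.2 to 22.2) and 19.4 CPM (12.4 to 28.9). Those of Tmem100 did not overlap in the library labelled cKO, at 14.3 CPM (9.32 to 20.9) and 34.8 CPM (25.2 to 46.8), and did in the Ctrl library, at 8.09 CPM (3.88 to 14.9) and 21.0 CPM (13.2 to 31.9), where it was at 11.7 CPM at 0 UMIs. Other genes were lower at 6 or more UMIs than at 0. Aplnr stood at 76.6 CPM at 0 and 15.5 CPM at 6 or more UMIs in the Ctrl library and at 58.7 and 19.1 CPM in the library labelled cKO. Sox17 stood at 149.97 and 36.2 CPM and at 81.3 and 28.7 CPM. Nr2f2 differed between the libraries, at 228 and 120 CPM in the Ctrl library and 162 and 218 CPM in the library labelled cKO.

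**Figure D1:**
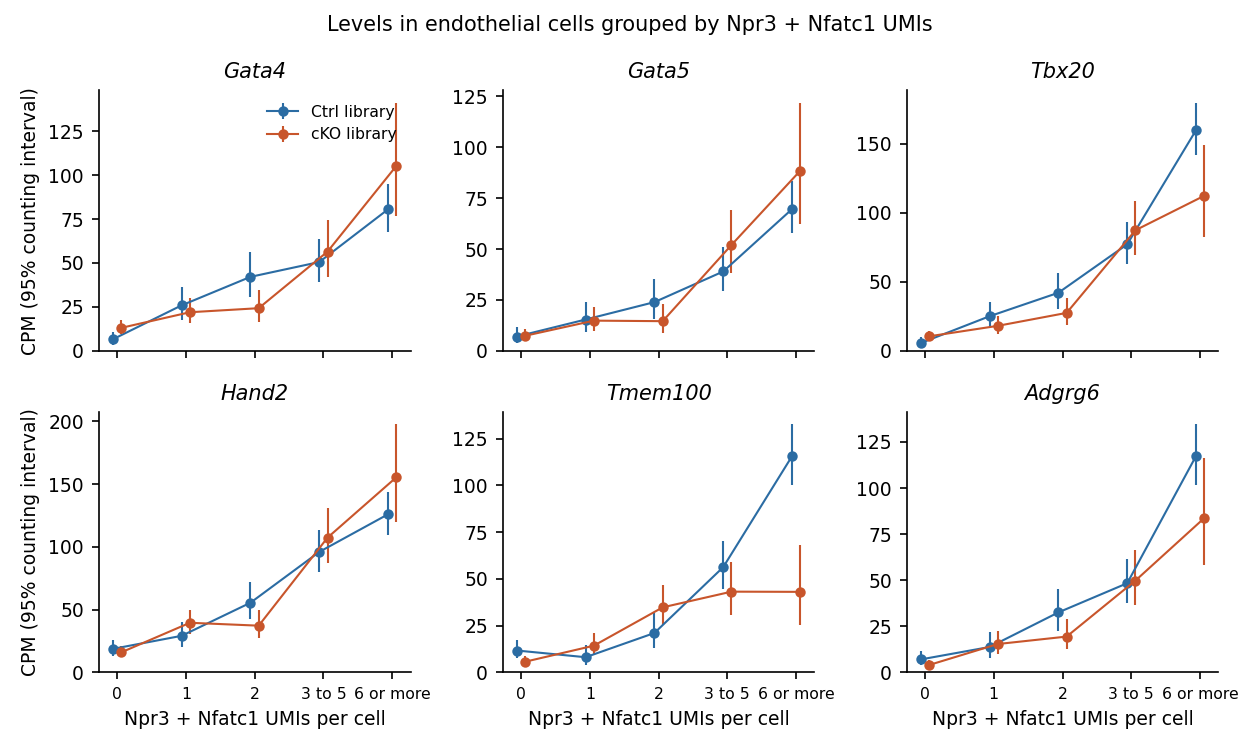
Summed CPM (vertical axis, bars give the 95% counting interval) of 6 genes outside the rule in endothelial cells grouped by their Npr3 plus Nfatc1 UMIs (horizontal axis), with the Ctrl library in blue and the library labelled cKO in orange. Cells from 2 UMIs on were called endocardial, and Tbx20 goes from 5.61 CPM to 160 CPM across the bins of the Ctrl library and from 10.5 CPM to 112 CPM in the library labelled cKO.

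Endocardial cells were first compared with other endothelial cells within each library, where both cell groups share capture and sequencing run. Higher in endocardial cells of both libraries were 14 of 14 measured endocardial genes outside the rule, 11 of 15 BMP and TGF-beta genes, 9 of 12 cushion genes, 9 of 11 trabeculation genes and 7 of 8 flow-responsive genes, and Lmo2 and Etv2 were among the genes that were lower. Of 7478 genes measured in both libraries (at least 30 UMIs, and 10 CPM in either cell group of each library), 156 (2.09%) were at least 2-fold higher in both libraries and 27 (0.361%) at least 2-fold lower in both, while 1 gene (0.0134%) differed 2-fold in opposite directions. The cells were chosen by Npr3 and Nfatc1, so a gene that accompanies them had to differ, and these counts describe the cells without testing them.

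Among the genes named by rule, Cdkn1c had the highest level. It encodes the p57 inhibitor of cyclin-dependent kinases. Cdkn1c (chromosome 7, 143458339 to 143461059, GRCm38) stood at 3432 CPM in endocardial and 444 CPM in other endothelial cells of the Ctrl library (log2 ratio 2.95, interval 2.86 to 3.05). In the library labelled cKO the levels were 3170 and 484 CPM (log2 ratio 2.71, interval 2.64 to 2.79). The summed level was higher in endocardial cells of both libraries. Adgrg6 (chromosome 10, 14402583 to 14545723), an adhesion G protein-coupled receptor, stood at 73.2 against 7.01 CPM and at 40.6 against 3.97 CPM, log2 ratios of 3.38 (2.64 to 4.24) and 3.36 (2.55 to 4.28). Tbx20 (chromosome 9, 24720812 to 24774303) stood at 103 against 5.61 CPM and at 62.5 against 10.5 CPM, log2 ratios of 4.20 (3.38 to 5.16) and 2.58 (2.05 to 3.13).

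The other genes that led the higher side were Mical2, Sdpr, Tmem100, Ccdc80, Nfia, Fam198b, Hand2, Pdlim3, Fn1, Rnd2, Tmem108 and Gata4. Tmem100, a transmembrane protein of endothelium downstream of BMP signals, stood at 72.2 against 11.7 CPM in the Ctrl library and 39.1 against 5.67 CPM in the library labelled cKO. Hand2, a basic helix-loop-helix factor of the cardiac mesoderm, stood at 98.3 against 18.7 CPM and 81.3 against 15.9 CPM. Fn1, the matrix protein fibronectin, stood at 1058 against 270 CPM and 687 against 145 CPM. Every one of these 12 genes was higher in endocardial cells of both libraries, with smaller log2 ratios per gene between 1.91 (Gata4) and 2.81 (Mical2).

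On the lower side stood Tmem255a, Lmo2, Gadd45g, Myl7, Hopx, Hpgd, Etv2, Bok, Kcne3 and Mmrn1. Lmo2, a LIM-domain cofactor of blood and endothelial progenitors, stood at 135 CPM in endocardial and 454 CPM in other endothelial cells of the Ctrl library (log2 ratio −1.75, interval −1.91 to −1.60). In the library labelled cKO it stood at 73.5 and 257 CPM (log2 ratio −1.81, interval −2.04 to −1.58). Etv2, the ETS factor that starts the endothelial and blood programme, stood at 51.6 against 132 CPM and 36.7 against 123 CPM. Myl7, a myosin light chain of atrial muscle, belongs to the cardiomyocyte markers, and 5 other endothelial cells held 90.6% of the UMIs of these markers in either library. With endothelial cells that had 20 or more UMIs of cardiomyocyte, erythroid or blood markers left out, the smaller of its 2 log2 ratios turned from −1.40 to 0.06, so its direction depends on those cells.

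**Figure D2:**
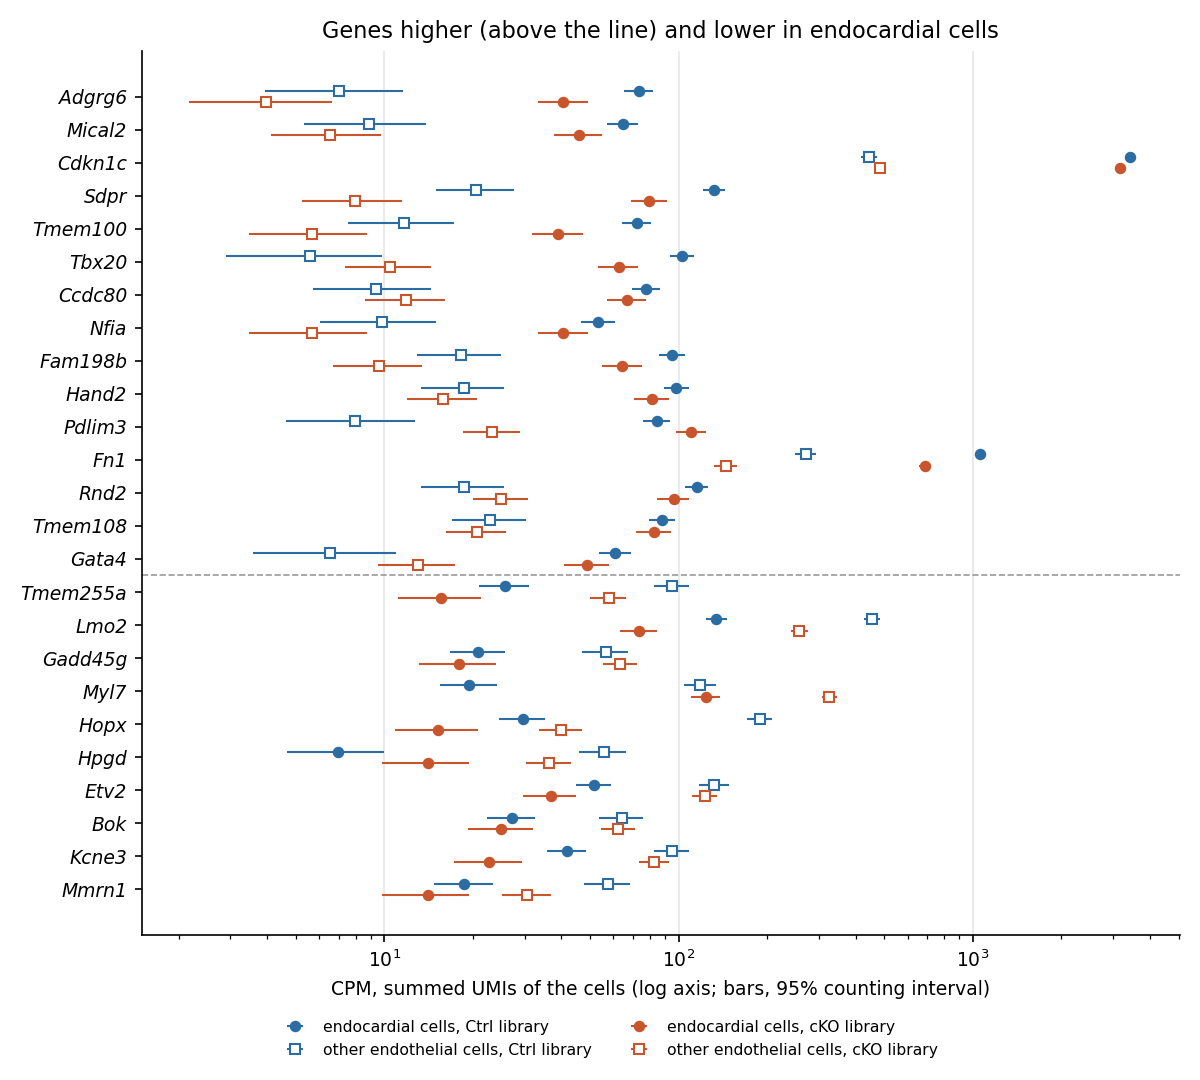
Summed CPM on a log axis (bars, 95% counting interval) of the 15 genes that led the higher side and, under the dashed line, the 10 that led the lower side of endocardial (filled circles) against other endothelial cells (open squares), in the Ctrl library (blue) and the library labelled cKO (orange). Cdkn1c stands at 3432 and 3170 CPM in endocardial cells against 444 and 484 CPM in other endothelial cells.

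The gene lists were read in the same way. Of 16 endocardial genes, 14 were measured and all 14 were higher in both libraries, 10 of them at least 2-fold, with median log2 ratios of 1.73 (Ctrl) and 1.67 (cKO). Across all measured genes, 40.0% were higher and 28.1% lower in both libraries. Gata5 and Gata6, partners of Gata4, had log2 ratios of 2.78 and 1.59 in the Ctrl library and 2.44 and 1.44 in the library labelled cKO. Of 21 measured genes shared by all endothelium, 10 were higher and 10 lower in both libraries, with medians of 0.00 and −0.05. Eng, the endoglin co-receptor of BMP ligands, was at 1.15 and 0.95, and Sox17, an arterial SOX factor, at −1.44 and −0.92.

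Genes of BMP and TGF-beta signalling were higher for 11 of 15 measured members in both libraries. The inhibitory Smad6 stood at 85.6 CPM in endocardial and 14.0 CPM in other endothelial cells of the Ctrl library and at 46.1 and 12.8 CPM in the library labelled cKO, log2 ratios of 2.61 (2.07 to 3.20) and 1.85 (1.35 to 2.38). Smad7, the other inhibitory Smad, had log2 ratios of 1.63 and 1.56, and the target genes Id1, Id2 and Id3 had ratios from 0.58 to 0.89. The other 4 members were lower in both libraries, namely the ligand genes Bmp4 (−1.02 and −0.60) and Tgfb1 (−0.0025 and −0.03) and the receptor genes Acvrl1 (−0.99 and −0.29) and Tgfbr1 (−0.21 and −0.41).

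Of 8 measured flow-responsive genes, which answer to shear stress in endothelium, 7 were higher in both libraries. Edn1, which encodes endothelin 1, had log2 ratios of 1.52 (0.99 to 2.09) and 1.54 (0.95 to 2.16), and Nos3, the endothelial nitric oxide synthase, of 1.04 (0.54 to 1.56) and 0.95 (0.47 to 1.45). Klf2, the flow-induced Krüppel-like factor, was at 0.49 (0.30 to 0.67) in the Ctrl library and 1.59 (1.39 to 1.79) in the library labelled cKO. Pdgfb was the member on the lower side, at −0.65 and −1.12.

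Of 9 measured arterial genes, 7 were higher in both libraries, among them the connexin gene Gja4 at log2 ratios of 1.56 and 2.01, the kinase gene Bmx at 4.02 (2.43 to 6.33) and 3.22 (2.21 to 4.42), and Hey2, a Notch target, at 2.06 and 1.93. Sox17 was the 1 lower in both, at −1.44 and −0.92, and Hey1 was at −0.14 and 0.17. Of 7 venous genes, 5 were lower in both, among them Aplnr, the apelin receptor, at −1.14 and −0.89, and the VEGF receptor Flt4 at −0.81 and −0.96. Among 10 measured Notch genes 6 were higher in both and none lower in both, and Notch1 was at 0.60 and 0.82. Several of these genes are low, and Bmx had 3 UMIs (1.40 CPM) in other endothelial cells of the Ctrl library.

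Genes of cushions and of trabeculation also stood higher. Among 12 measured cushion and transition genes 9 were higher in both libraries, and Msx1, a homeobox factor of cushion endocardium, stood at 82.5 against 18.2 CPM and 50.8 against 19.0 CPM. Sox9, a SOX factor of cushion mesenchyme, stood at 182 against 35.5 CPM in the Ctrl library and 61.8 against 32.6 CPM in the library labelled cKO. Among 11 trabeculation and cardiac jelly genes 9 were higher in both, including Nrg1, the neuregulin ligand of the muscle, at log2 ratios of 1.86 and 2.39, and Has2, the hyaluronan synthase, at 2.77 and 1.22. Igf2, an insulin-like growth factor gene, was at 1.28 and 1.02.

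Markers of other cell types were set beside these values. The 10 pharyngeal and lateral mesenchyme markers summed to 421 CPM in endocardial and 393 CPM in other endothelial cells of the Ctrl library and to 568.7 and 509 CPM in the library labelled cKO, with none of the 10 at 0. The 10 cardiomyocyte markers summed to 132 and 660 CPM and to 611 and 1064 CPM, with 1 of 10 at 0 in endocardial cells of the Ctrl library. The 8 blood and macrophage markers summed to 9.59 and 327 CPM and to 10.2 and 10.2 CPM, where 1 other endothelial cell with 673 such UMIs made most of the Ctrl value. The 9 primitive erythroid markers summed to 22.5 and 4.67 CPM in the Ctrl library, with 5 of 9 at 0 in both cell groups, and to 6209 and 1974 CPM in the library labelled cKO, where 5 cells of each group held 97.5% and 92.6% of these UMIs. Their part in the differences was not tested.

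Endocardial cells were split by the 2 genes of the rule, which describes the rule and is no finding. The median endocardial cell of the Ctrl library had 1 Nfatc1 UMI. In this split 64 cells of the Ctrl library had 2 or more Npr3 UMIs and no Nfatc1 UMI, 21 had 2 or more Nfatc1 UMIs and no Npr3 UMI, and 110 had both genes. In the library labelled cKO these numbers were 47, 22 and 64. Of 12 measured cushion and transition genes, 7 were lower and 3 higher in the Npr3-only than in the Nfatc1-only cells of both libraries. The contrast rests on few cells, and of 7433 measured genes 78 (1.05%) were at least 2-fold higher in Npr3-only cells of both libraries and 63 (0.848%) at least 2-fold lower, when 59 (0.794%) differed 2-fold in opposite directions in the 2 libraries. The counts are therefore not far from the count of contradictory genes, several of the genes named below have intervals that come near 0 or hold it, and 0 of the 78 and 6 of the 63 genes were called after thinning.

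Pdlim3, a PDZ and LIM protein of the actin cytoskeleton, was among them. It stood at 271 CPM in Nfatc1-only and 13.7 CPM in Npr3-only cells of the Ctrl library, a log2 ratio of Npr3-only over Nfatc1-only of −4.31 (−5.16 to −3.55). In the library labelled cKO it stood at 225 and 30.8 CPM (log2 ratio −2.87, interval −3.50 to −2.27). Sox9 stood at 351 and 37.6 CPM and at 147 and 38.5 CPM, with log2 ratios of −3.22 (−3.73 to −2.73) and −1.94 (−2.56 to −1.32). Msx1 stood at 189 and 23.9 CPM and at 88.4 and 25.0 CPM, and Gata4 at 139 and 17.9 CPM and at 83.0 and 24.1 CPM. Cyp26b1, an enzyme that degrades retinoic acid (chromosome 6, 84571414 to 84593908), stood at 162 and 19.7 CPM and at 45.5 and 11.55 CPM. Each of these genes was higher in the Nfatc1-only cells of both libraries.

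Tbx20 took the same side, at 202 CPM in Nfatc1-only and 21.4 CPM in Npr3-only cells of the Ctrl library and at 121 and 15.4 CPM in the library labelled cKO. Serpinb9b, a serine protease inhibitor gene, stood at 115 and 83.0 CPM in the Nfatc1-only cells, was at 0 in Npr3-only cells of the Ctrl library, where 3 UMIs would give 2.56 CPM, and stood at 0.962 CPM in those of the library labelled cKO. Ccdc141, Igfbp7, Mgst3, Rhob and Gpm6b completed the genes named on this side. Mgst3 had 9 UMIs in Nfatc1-only and 7 in Npr3-only cells of the Ctrl library. In the library labelled cKO the 5 endocardial cells richest in Mgst3 held 70% of its UMIs. Of 8 flow-responsive genes 5 were lower in the Npr3-only cells of both libraries, with Klf2 at log2 ratios of −0.91 and −2.45. Over all measured genes 27.1% were lower in both.

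On the Npr3-only side, Irx5, an Iroquois homeobox factor (chromosome 8, 92357796 to 92361456), stood at 111 CPM against 10.5 CPM in Nfatc1-only cells of the Ctrl library (log2 ratio 3.40, interval 2.14 to 5.05), and at 51.0 against 21.4 CPM in the library labelled cKO (log2 ratio 1.25, interval 0.17 to 2.54). Igfbp3, an insulin-like growth factor binding protein, stood at 116 against 21.0 CPM and 69.3 against 18.7 CPM. Tagln, Col23a1, Rgs2, Mmrn2, Upp1, Clec1b, Gm266, Cdh11, Myl4 and Myl9 completed this side, and the lower bound of the interval of Col23a1 in the library labelled cKO and of Myl4 and Myl9 in the Ctrl library was under 0. Of 14 glycolysis genes 11 were higher in Npr3-only cells of both libraries, when 27.6% of all measured genes were. Mesenchyme markers moved with the contrast in opposite directions, with a median log2 ratio of −1.10 in the Ctrl library and 0.52 in the library labelled cKO. Of 7 smooth muscle markers 2 were measured, with medians of 1.14 (1 of 2 higher) and 1.94 (2 of 2), of 10 cardiomyocyte markers 4 were, with −0.25 and 1.34, and of 9 primitive erythroid markers 2 were, both lower, with −2.45 and −2.39. Scrublet, a doublet caller, marked 15.6% and 29.8% of Npr3-only against 14.3% and 18.2% of Nfatc1-only cells. Their part was not tested.

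The comparison between the libraries was made by the study to ask what differs where Tbx1 is deleted in the mesoderm, and here it sets the library labelled cKO against the Ctrl library. Endocardial cells made up 2.78% (2.41 to 3.20%) of kept cells in the Ctrl library and 1.36% (1.14 to 1.61%) in the library labelled cKO, a ratio of 0.489 (0.393 to 0.608). Of endothelial cells they were 52.7% (47.5 to 57.9%) and 32.0% (27.5 to 36.7%), a ratio of 0.607 (0.512 to 0.719). The share of other endothelial cells among kept cells was 1.64% and 1.95%, a ratio of 1.19 (0.947 to 1.498). Cells with Xist UMIs and cells with Y-linked UMIs belong to separate embryos within each pool and give a partial look at single embryos. Among endothelial cells the endocardial share was 45.8% (38.0 to 53.7%) for Xist-positive cells of the Ctrl library and 58.0% (49.7 to 66.0%) for its Y-positive cells. In the library labelled cKO the same shares were 34.4% (27.7 to 41.5%) and 30.4% (22.9 to 38.8%). Both values of the library labelled cKO lay below both of the Ctrl library.

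The size of this difference depended on the genes that define the cells. Npr3 was lower in the library labelled cKO outside the endothelium too, at 16.6 CPM (Ctrl) and 10.8 CPM (cKO) (log2 ratio −0.62, interval −0.72 to −0.53). When endothelial cells were instead counted by at least 2 UMIs of Gata4, Gata5, Tbx20 and Hand2 together, a definition chosen after the data were seen, the shares were 42.2% (37.1 to 47.4%) and 33.2% (28.7 to 37.9%), a ratio of 0.787 (0.656 to 0.943). With 1 UMI of these 4 genes after thinning each cell to 5000 UMIs they were 34.2% (29.4 to 39.3%) and 30.5% (26.0 to 35.2%), a ratio of 0.890 (0.726 to 1.09), whose interval holds 1. The Npr3 and Nfatc1 rule gave 48 and 19 cells after the same thinning, a ratio of the shares of endothelial cells of 0.424. By the rule, fewer endocardial cells and less Npr3 per cell cannot be told apart.

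**Figure D3:**
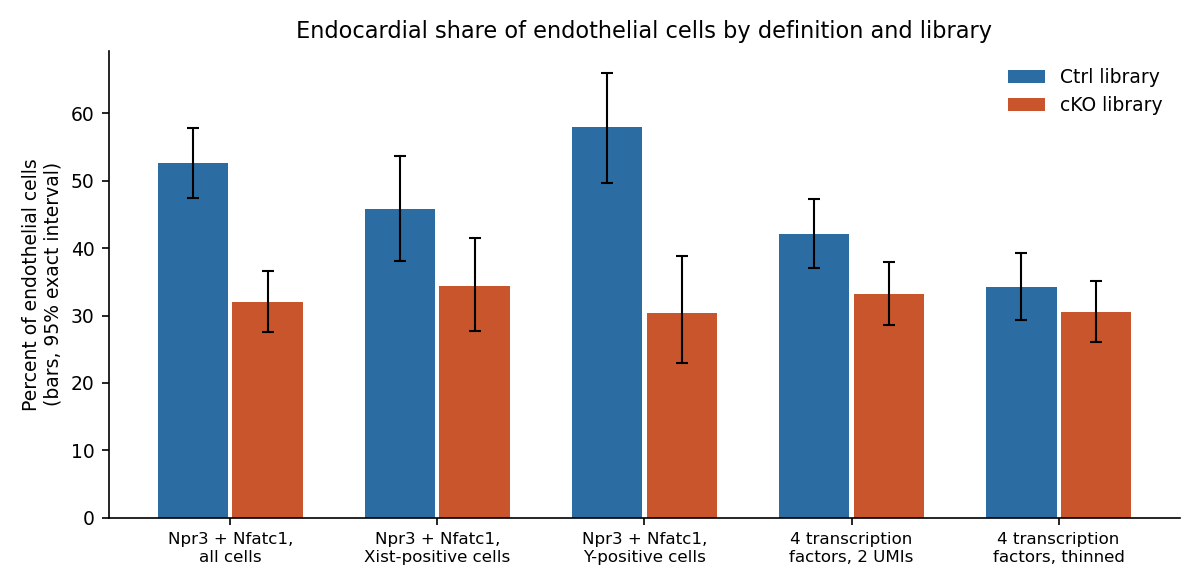
Percent of endothelial cells called endocardial (bars from 0, black bars give the exact 95% interval) in the Ctrl library (blue) and the library labelled cKO (orange), by the Npr3 plus Nfatc1 rule in all, Xist-positive and Y-positive cells and by 4 transcription factors outside the rule at full depth and after thinning. The shares go from 52.7% against 32.0% by the rule to 34.2% against 30.5% by the 4 factors after thinning.

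Within endocardial cells, 8038 genes were measured, and 91 (1.13%) were at least 2-fold higher and 207 (2.58%) at least 2-fold lower in the library labelled cKO. The median log2 ratio of all measured genes was −0.11, and 61.8% of them were below 0, so ratios are to be read against that shift. In other endothelial cells 84 (1.08%) of 7748 genes were higher and 271 (3.5%) lower by the same measure. Actc1 had the highest log2 ratio among the named genes. Sox9 was lower in endocardial cells alone of the 2 endothelial groups beyond counting error. Genes of the endothelial and Notch programmes stood lower in both groups, and Notch genes stood lower outside the endothelium too.

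Sox9 (chromosome 11, 112782210 to 112787757) stood at 182 CPM (169 to 195) in endocardial cells of the Ctrl library and at 61.8 CPM (52.5 to 72.2) in those of the library labelled cKO (log2 ratio −1.56, interval −1.82 to −1.31). In other endothelial cells it stood at 35.5 and 32.6 CPM (log2 ratio −0.12, interval −0.55 to 0.31), and the difference between these ratios was −1.44 (−1.92 to −0.95). It was lower in Xist-positive (−1.73) and in Y-positive (−0.77) endocardial cells, and outside the endothelium (−0.77). After thinning, 21.0% (15.5 to 27.4%) of endocardial cells of the Ctrl library and 10.9% (6.06 to 17.5%) of those of the library labelled cKO had a Sox9 UMI. The 5 cells richest in Sox9 held 29.1% and 51.3% of its UMIs, so the level rests on part of the cells.

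Chsy1, a chondroitin synthase, and Timp3, an inhibitor of metalloproteinases, also differed more in endocardial than in other endothelial cells. Chsy1 stood at 50.1 and 17.6 CPM in endocardial cells (log2 ratio −1.51, interval −2.01 to −1.04) against −0.64 in other endothelial cells. Timp3 stood at 51.8 and 18.4 CPM (log2 ratio −1.496, interval −1.98 to −1.04) against −0.66. Their differences between the 2 cell groups were −0.87 (−1.54 to −0.20) and −0.83 (−1.39 to −0.27).

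Other named genes had similar ratios in other endothelial cells. Efnb2, the ephrin ligand of arterial endothelium, stood at 114 and 50.4 CPM (log2 ratio −1.18, interval −1.47 to −0.90), and had −1.35 in other endothelial cells. Tal1, a transcription factor of blood and endothelium, stood at 56.6 and 22.7 CPM, with ratios of −1.32 in endocardial and −0.997 in other endothelial cells. Cd59a, Sema6d, Snrk, AY036118, Zfp36l1 and Nid1 completed the lower side, with differences between the cell groups whose intervals held 0. Phgdh, the first enzyme of serine synthesis, was on the higher side at 20.1 and 62.5 CPM, with 1.63 in endocardial and 1.76 in other endothelial cells.

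Some named genes belong to families or loci with near-identical copies, between which the counting could split reads, and their values are uncertain. Tpm3-rs7 stood at 236 and 12.9 CPM, and Ubb, Gm10076, Gm10260, Hist1h2ap and Il11ra1 stood higher in the library labelled cKO at log2 ratios between 1.52 and 2.93. All 6 took the same direction in other endothelial cells and outside the endothelium.

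Of the 12 genes named on the higher side, 6 are contractile genes. Actc1, cardiac actin, stood at 7.68 CPM (5.25 to 10.8) in the Ctrl library and 135 CPM (121 to 150) in the library labelled cKO (log2 ratio 4.13, interval 3.61 to 4.71). Ttn, the titin of sarcomeres, stood at 5.04 and 52.4 CPM. A few cells carried these values, since 5 endocardial cells of the library labelled cKO held 91.0% of its Actc1 UMIs and 94.8% of its Ttn UMIs. Acta2, Myl7, Myl4 and Tnnt2 were the other 4.

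The cardiomyocyte markers as a list summed to 132 CPM in endocardial cells of the Ctrl library and 611 CPM in those of the library labelled cKO, with Actn2 at 0 in the former, and outside the endothelium to 1973 and 3284 CPM. The 9 primitive erythroid markers summed to 22.5 and 6209 CPM, with 5 of 9 at 0 in the Ctrl library, and outside the endothelium to 10.2 and 10883 CPM. In the library labelled cKO 5 endocardial cells held 97.5% of these UMIs, but low counts were widespread. A Hbb-y UMI was found in 8.72% of endocardial cells of the Ctrl library and in 76.7% of those of the library labelled cKO. With the cells of 20 or more cardiomyocyte, erythroid or blood marker UMIs left out, a step chosen after the data were seen, 192 and 122 endocardial cells remained. Actc1 then stood at 1.34 (0.46 to 2.23), Ttn at 0.32 (−1.28 to 1.82), Acta2 at 1.35 (0.63 to 2.09), Myl7 at 0.65 (0.02 to 1.28), Myl4 at 0.54 (−0.08 to 1.16), Tnnt2 at 0.18 (−0.57 to 0.91) and Sox9 at −1.38 (−1.65 to −1.13) on the log2 scale. Of the 91 higher genes 46 and of the 207 lower genes 156 were also called without these cells. The 10 mesenchyme markers had a median log2 ratio of 0.47 in endocardial cells, with 8 of 10 higher, and 0.22 with 4 of 10 lower without the marker-rich cells, and their part in the result was not tested.

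**Figure D4:**
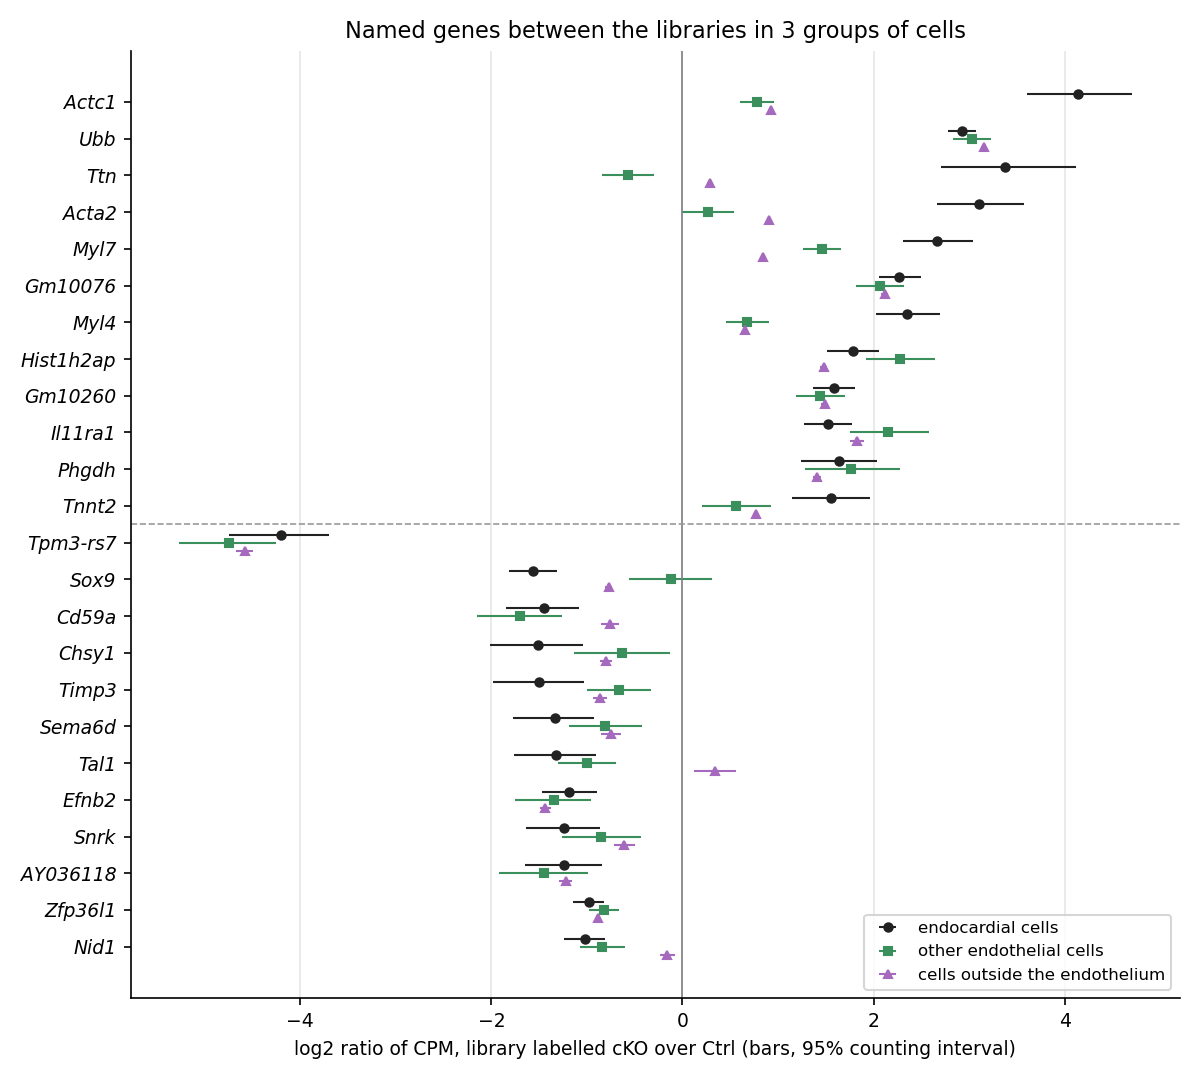
Log2 ratio of CPM, library labelled cKO over Ctrl (bars, 95% counting interval), of the 12 higher and, under the dashed line, the 12 lower named genes in endocardial cells (black circles), other endothelial cells (green squares) and cells outside the endothelium (purple triangles). Sox9 stands at −1.56 in endocardial and −0.12 in other endothelial cells, and Actc1 at 4.13 and 0.78.

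By gene list, endothelial and endocardial genes stood lower in the library labelled cKO. All 14 measured endocardial genes outside the rule were lower, none of them 2-fold, with a median log2 ratio of −0.54. The value differed between embryos, since the median was −0.09 with 7 of 14 lower in Xist-positive and −0.81 with 13 of 14 lower in Y-positive cells. Tbx20 stood at 103 and 62.5 CPM (log2 ratio −0.72, interval −0.99 to −0.45), Tmem100 at −0.89 (−1.23 to −0.55) and Hapln1, a link protein of cardiac jelly, at −0.54 (−0.62 to −0.46). Tmem100 was the exception in Y-positive cells, at 0.19 against −1.32 in Xist-positive cells. Tbx20, Gata4 and other genes outside the rule rose with the Npr3 and Nfatc1 count that chose the cells. Of endocardial cells, 79 of 195 (Ctrl) and 22 of 133 (cKO) had 6 or more UMIs of the pair. Among these, Gata4 (80.5 and 105 CPM), Gata5 (69.6 and 88.5 CPM) and Hand2 (126 and 155 CPM) were higher in the library labelled cKO. Tbx20 (160 and 112 CPM), Tmem100 (116 and 43.1 CPM) and Adgrg6 (117 and 83.7 CPM) were lower there. The part of this mix was not tested. Of 21 pan-endothelial genes 19 were lower with a median of −0.46, and 20 of 21 with a median of −0.41 in other endothelial cells, where 60.3% of all measured genes were lower. Without the marker-rich cells the endocardial median was −0.31 and the pan-endothelial median −0.23, and Hapln1 was at −0.31.

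All 11 measured Notch genes were lower, with a median of −0.64 against −0.46 for 7 measured in other endothelial cells. Without the marker-rich cells 10 of the 11 were lower with a median of −0.41, and Hey2 was at 0.17. Notch1 stood at 127 and 72.3 CPM (log2 ratio −0.82, interval −1.07 to −0.57), and Rbpj, the DNA-binding partner of Notch, at −0.76 (−1.14 to −0.39). In BMP and TGF-beta signalling 12 of 15 genes were lower, with a median of −0.40 against −0.53 in other endothelial cells. The receptor gene Bmpr2 stood at 102 and 50.8 CPM (log2 ratio −1.004, interval −1.30 to −0.72), and Smad6 at −0.89 (−1.21 to −0.59), while the ligand gene Tgfb2 was at 0.24 (−0.05 to 0.53). Outside the endothelium 6 of 6 measured Notch genes and 11 of 12 BMP and TGF-beta genes were lower, with medians of −0.56 and −0.46. Neither list stood lower in endocardial cells alone.

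Of 12 cushion genes 7 were lower, with a median of −0.09, when 61.8% of all measured genes were lower with a median of −0.11. In other endothelial cells 10 of 13 cushion genes were higher, with a median of 0.18. Without the marker-rich cells 9 of the 12 were lower in endocardial cells, with a median of −0.28. Besides Sox9, Msx1 stood at 82.5 and 50.8 CPM (log2 ratio −0.70, interval −1.002 to −0.40), and Snai1, a transcriptional repressor that drives the transition, at −0.81 (−1.36 to −0.28). Vim, vimentin, stood at 2506 and 3057 CPM (log2 ratio 0.29, interval 0.24 to 0.33). Without the marker-rich cells Msx1 was at −0.45 and Vim at 0.49. Of 11 trabeculation genes 9 were lower, with a median of −0.27, and 8 with a median of −0.13 without the marker-rich cells.

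All 12 G2/M genes were lower in endocardial cells, with a median of −0.40, against −0.25 in other endothelial cells and 0.00 outside the endothelium. Top2a stood at 415 and 281 CPM (log2 ratio −0.56, interval −0.69 to −0.44). The median was −0.57 in Xist-positive and −0.46 in Y-positive cells, so cells of either kind gave this direction. The 12 S phase genes had a median of 0.02.

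**Figure D5:**
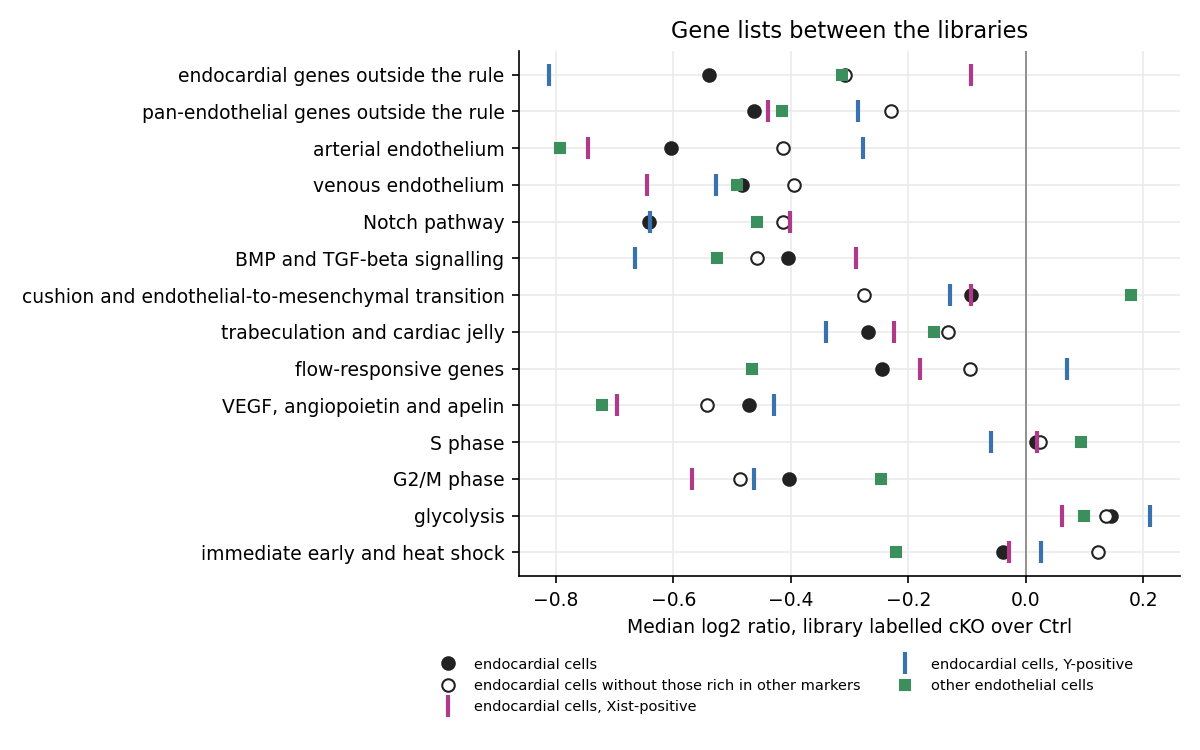
Median log2 ratio, library labelled cKO over Ctrl, of the measured genes of 14 lists in endocardial cells (filled circles), in endocardial cells without those rich in other markers (open circles), in Xist-positive and Y-positive endocardial cells (vertical ticks) and in other endothelial cells (green squares). The endocardial list lies at −0.54, between −0.09 in Xist-positive and −0.81 in Y-positive cells, and G2/M genes lie at −0.40.

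Tbx1 itself was low in endocardial cells, at 9.59 CPM (6.85 to 13.1) from 40 UMIs in the Ctrl library and 12.1 CPM (8.23 to 17.2) from 31 UMIs in the library labelled cKO (log2 ratio 0.34, interval −0.39 to 1.05). By the rule, a difference was not detectable at this depth, and its direction depended on the setting. The ratio was 1.10 (0.28 to 1.93) with at least 6 endothelial genes and 20 UMIs. It was −1.28 (−4.48 to 0.89) in Y-positive cells, −0.47 by the mean over cells and −0.72 (−1.79 to 0.24) without the marker-rich cells. A list of 17 genes was taken from the text of the study, which names others too, was written from these libraries and is not independent evidence. Of its members 8 of 10 measured were lower, with a median of −0.50, and Tbx1 and Foxf1 (0.24, −0.29 to 0.76) were the other 2. Isl1, a LIM homeobox factor of the second heart field, stood at 22.8 and 8.60 CPM (log2 ratio −1.41, interval −2.15 to −0.73), and Wnt5a, a Wnt ligand, at 25.9 and 5.08 CPM, −2.35 (−3.31 to −1.52). Few cells carried both, since the 5 richest cells held 46.3% and 63.6% of Isl1 UMIs and 37.0% and 61.5% of Wnt5a UMIs, and 13 and 10 endocardial cells of the library labelled cKO had a UMI of Isl1 and Wnt5a. Without the marker-rich cells Isl1 was at −2.27 (−3.38 to −1.33).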

How the data were processed

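The deposited files held raw UMI counts per gene and cell for 1 Ctrl and 1 cKO library, made by the authors with Cell Ranger 3.1.0 and the mm10 build per the labels. Cells with at least 1000 genes and at most 10% mitochondrial UMIs were kept. Counts were summed per library over each cell group and divided by their total (CPM), with exact Poisson, conditional binomial (ratios) and Clopper-Pearson (shares) 95% intervals. A gene was measured with at least 30 UMIs and 10 CPM in either group. Named genes had at least 50 CPM: the 12 each way between libraries whose interval kept farthest from 0 with the same sign in Xist-positive and Y-positive cells (leaving out sex-linked, mitochondrial, ribosomal and globin genes), and the 15 higher and 10 lower (cell types) or 12 each way (Npr3-only against Nfatc1-only) by the smaller of the 2 log2 ratios. The members and lists were chosen with earlier results of these data known. Doublets were not removed in the values given, and Scrublet in scanpy 1.11.5 marked cells for an alternative. It marked 14.4% (Ctrl) and 21.8% (cKO) of endocardial cells, against 5.94% and 8.23% of kept cells. Python 3.11.15, numpy 2.4.6, scipy 1.17.1 and edgeR 4.0.16 (size factors only) were used, and scripts were tested on simulated data. Coordinates are RefSeq on GRCm38.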

Additional observations from a re-analysis of the deposited data

Results flagged for a closer look

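Among listed genes and genes named by rule, 7 had library ratios in opposite directions in endocardial and other endothelial cells with both counting intervals clear of 0. With 1 library per genotype none of these differences was tested. The scan was not run over all measured genes, so no share of them stands beside this count. Intervals were read against 0, while the median log2 ratio of all measured genes was −0.11 in endocardial and −0.10 in other endothelial cells. Cdh11, a mesenchymal cadherin, had log2 ratios of −0.48 in endocardial and 0.80 in other endothelial cells. Gata4 had −0.32 and 0.995, the latter from 14 and 46 UMIs, and in endocardial cells it was at −0.24 (−0.58 to 0.10) without the marker-rich cells and at 0.14 in Xist-positive cells. Klf2 stood at 212 and 267 CPM in endocardial cells, a log2 ratio of 0.33, and at 151 and 88.7 CPM in other endothelial cells, a ratio of −0.77. Ttn, titin, had log2 ratios of 3.38 and −0.57, and Myh6, a cardiac myosin heavy chain, had 4.07 and −0.62. Without the marker-rich cells Ttn in endocardial cells was at 0.32 (−1.28 to 1.82) and Myh6 at 3 and 0 UMIs. Hpgd, a prostaglandin dehydrogenase, had 1.02 and −0.62, the former from 29 and 36 UMIs. Cdkn1c had −0.11 and 0.13, and the former equals the median of all measured genes in endocardial cells, so it is no difference beyond that shift. Klf2 was higher in both Xist-positive (0.57) and Y-positive (0.39) endocardial cells, and at 0.57 (0.42 to 0.72) without the marker-rich cells.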

How the results depend on the processing

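No paired analysis was possible because each group had 1 library. Ratios cover counting error only, and genotype, stage and capture cannot be told apart. The cause of the shifts below was not tested. The ratio of the endocardial share of kept cells (0.489) was 0.335 with at least 4 Npr3 plus Nfatc1 UMIs, 0.358 with at least 6 endothelial genes and 20 UMIs, 0.284 with the rule after thinning, and, in alternatives chosen after seeing the data, 0.634 by 4 transcription factors and 0.705 by these after thinning. The ratio of the share of endothelial cells (0.607) was 0.415 with at least 4 UMIs, 0.424 after thinning, 0.750 in Xist-positive cells, and 0.787 and 0.890 by the 4 factors. The 91 genes higher in the library labelled cKO became 780 without the low count filter. The 207 lower genes became 398 with 6 genes and 20 UMIs, 343 after thinning, 337 in Xist-positive and 510 in Y-positive cells, 134 with median-ratio size factors and 830 without the filter. Against other endothelial cells, the 156 higher genes became 256 with at least 4 UMIs and 353 without the filter. The 27 lower genes became 50 without cells marked by Scrublet, 85 with at least 4 UMIs, 54 after thinning, 42 in Xist-positive and 48 in Y-positive cells, and 115 without the filter. Of genes higher in Npr3-only cells (78) there were 121 with at least 4 UMIs, 13 after thinning, 49 in Xist-positive cells, 132 by the mean over cells and 157 without the filter. Of those lower (63) there were 35 with 6 genes and 20 UMIs, 117 after thinning, 33 in Xist-positive and 35 in Y-positive cells, and 240 without the filter. The Tbx1 log2 ratio (0.34) was 1.10 with 6 genes and 20 UMIs, −1.28 in Y-positive cells, −0.47 by the mean over cells and, in an alternative chosen after seeing the data, −0.72 without marker-rich cells. After thinning, which left 48 and 19 cells, Acta2 (−1.32), Myl7 (−1.35), Myl4 (−0.70), Tnnt2 (−0.59), Hist1h2ap (−0.48), the glycolysis median (−0.00226) and the cardiomyocyte median (−0.29) turned lower in the library labelled cKO. Myl7 in endocardial against other endothelial cells turned to 1.02 without cells marked by Scrublet and to 0.0561 without marker-rich cells, an alternative chosen after seeing the data. The genes called also changed: of the 91 higher genes 11 were called after thinning, 39 in Xist-positive and 33 in Y-positive cells, of the 207 lower genes 32, 104 and 99, of the 78 genes higher in Npr3-only cells 0, 17 and 13, and of the 63 lower ones 6, 11 and 16. Of the other values, 905 moved by less than the spread and 223 by more.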

Other observations

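Glycolysis genes stood lower in endocardial than in other endothelial cells, in 12 of 14 genes in both libraries, with median log2 ratios of −0.35 (Ctrl) and −0.28 (cKO). Over all measured genes 28.1% were lower in both. Pgk1, a kinase of lower glycolysis, had −0.58 (−0.88 to −0.29) and −0.30 (−0.55 to −0.05), and Hk1, a hexokinase, went the other way at 0.54 and 0.75. Between the libraries 10 of 14 were higher in endocardial cells of the library labelled cKO, when 61.8% of all measured genes were lower. Eno1, enolase, stood at 341 and 558 CPM. The median of the list was 0.15 in endocardial, 0.10 in other endothelial cells and 0.19 outside the endothelium.

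Between the libraries, 10 of 11 arterial and 7 of 7 venous genes were lower in endocardial cells, with medians of −0.60 and −0.48. Of 10 VEGF, angiopoietin and apelin genes 8 were lower with a median of −0.47. Over all measured genes 61.8% were lower. In other endothelial cells 6 of 6, 7 of 7 and 8 of 11 genes of these lists were lower, with medians of −0.79, −0.49 and −0.72. Without the marker-rich cells the endocardial medians were −0.41, −0.39 and −0.54, with 8, 7 and 9 genes lower. Vegfa, the main ligand of the family, stood at 25.9 and 9.38 CPM, while Vegfb stood at 44.4 and 59.8 CPM. The 8 measured immediate early and heat shock genes, which respond to handling of the cells, had a median of −0.04, and of 0.12 without the marker-rich cells, with Jun at 132 CPM in both libraries.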
